A study of Mus musculus with 4 samples.

Results

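*Fpr1*, *Fpr2*, *Tlr2*, *Tlr4*, *Cd14*, *Clec4d*, *Clec4e* and *Trem1* encode receptors with which innate immune cells sense microbes and the debris of damaged cells. They were taken by symbol, the only identifier used here, from the gene lists of 4 single-cell libraries of mouse skin wounds. All 8 were listed in every library, and they are 8 of the 19001 symbols that all 4 libraries list. Their levels are described in neutrophil-like, monocyte-like, macrophage-like, dendritic-like and basophil-like cells.

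Formyl peptide receptors are G protein-coupled receptors for peptides that begin with formylated methionine, which bacteria and mitochondria release, and they guide neutrophils towards such sources. The Toll-like receptors TLR2 and TLR4 bind microbial lipids and lipoproteins, with CD14 as a shared co-receptor, and the C-type lectins encoded by *Clec4d* and *Clec4e* bind mycobacterial glycolipids and signal through an Fc receptor chain, whereas TREM1 amplifies these responses through the adaptor DAP12. In wounded skin such receptors are known from the neutrophils and monocytes that enter from the blood and from the macrophages that follow them.

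The study asked how exosomes shed by mesenchymal stem cells of the human umbilical cord (hucMSC-Exosomes) act on the immune cells of a healing wound. Every animal was a C57/BL6j mouse of 6 weeks with a punch wound of 8 mm, and skin around the wound was taken on day 7. The hucMSC-Exosomes group (libraries hucMSC-Exo 1 and hucMSC-Exo 2) had received 100 µg of exosomes per injection at 4 sites every 48 h, and the control group (libraries Control 1 and Control 2) had received PBS in the same way. Each library came from 1 mouse and was made with 10x 3′ chemistry version 3.1, so that each group holds 2 libraries and the vesicles come from another species than the host. Values of 4 libraries are always given in the order Control 1 and 2, then hucMSC-Exo 1 and 2. The libraries held 6657095, 16950639, 8198377 and 10270615 unique molecular identifiers (UMIs, counted transcripts) in 1098, 2422, 1539 and 2119 cells, which is fewer cells than the study counted. Filters on detected genes and mitochondrial RNA kept 952, 2074, 1416 and 2001 cells, among which 6 barcodes occurred in 2 libraries.

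The labels name gut segments as the tissue and skin as the cell type. Skin markers were present: the 5 keratinocyte markers summed to 988, 455, 738 and 630.3 CPM (UMIs per 1000000 UMIs), led by *Krt14*, and the 5 fibroblast markers to 183, 324, 192 and 220.0 CPM. The 8 markers of intestinal epithelium summed to 0.209, 0.445, 1.08 and 1.10 CPM, with 1 or 2 of them above 0, mostly *Lgr5*, and *Cdx2* not among the symbols. Letters in the deposited file names pair Control 1 with hucMSC-Exo 1 and Control 2 with hucMSC-Exo 2, against the titles. Read as control and treated, the letters would place hucMSC-Exo 1 in the control group and Control 2 in the hucMSC-Exosomes group. The libraries held 56, 346, 93 and 542 neutrophil-like cells, which sum to 402 in the control and 635 in the hucMSC-Exosomes group by titles, and to 149 and 888 in the first and second pair by letters. Macrophage-like cells sum to 615 and 496 by titles and to 411 and 700 by letters. The direction of the macrophage sums thus turns with the naming. The study itself counted more neutrophils and more macrophages in its hucMSC-Exosomes group than in its control group. Whether titles or letters name the treatment was not tested, and every direction between groups given here rests on the titles.

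Cells were gated by clusters made without the 8 genes and the genes of 4 related lists, 66 genes in all, and each cluster was named after the fixed marker list with the highest mean score, except for 2 clusters of 679 and 190 cells that stayed unnamed because leading genes were markers of another list. The first of these scored highest for T cell markers and is not part of the T cell-like cells. Cluster 7, 737 cells of the macrophage gate, scored highest for markers of osteoclast-like macrophages, which were counted as macrophages, and cluster 22 of the neutrophil gate was led by no marker of its list. The neutrophil gate held 1037 cells with a median of 2095 UMIs, the monocyte gate 335 cells (6617 UMIs), the macrophage gate 1111 cells (7323 UMIs), the dendritic gate 369 cells (9712 UMIs) and the basophil gate 101 cells (3142 UMIs). Control 1 gave 1 basophil-like cell, so basophil values come from the other 3 libraries. T cell-like cells, which should lack these receptors, served as background for free RNA, with 1935 cells and a median of 4184 UMIs. Because neutrophil-like cells were the shallowest, shares of positive cells (at least 1 UMI) are also given after each cell was thinned to 1000 UMIs, which leaves out the shallower cells and keeps 1003, 329, 1097, 363 and 100 cells of the 5 gates and 1917 T cell-like cells. Levels are CPM of the gate's UMIs, given as mean ± SD over libraries, shares are pooled over the cells of all libraries unless given per library, and intervals are exact Clopper-Pearson 95% intervals, which cover counting error only. Where no UMI was seen, the limit given is 3 counts over the cells, and it bounds the cells with a UMI and not the cells that express the gene.

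Neutrophil-like cells held 90.8% of the 737 *Fpr1* UMIs among all kept cells (57.9, 93.8, 77.9 and 92.6% in the 4 libraries) and 81.3% of the 1019 *Fpr2* UMIs (39.7, 83.8, 72.5 and 85.5%). In Control 1, which has few neutrophil-like cells, macrophage-like cells held more of *Fpr2* (54.0%). *Fpr1*, which encodes the high-affinity receptor for bacterial formyl peptides, stood at 94.3, 307, 299.9 and 297 CPM in the neutrophil gate (249.5 ± 104, n = 4). Control 1 was the low library and the other 3 lay close together, so the 2 groups overlapped. In the macrophage gate *Fpr1* reached 6.17, 3.79, 7.98 and 12.0 CPM, and in the monocyte gate 0, 3.04, 0 and 2.03 CPM. No *Fpr1* UMI was seen in 369 dendritic-like cells, which allows a share of up to 0.813%, or in 101 basophil-like cells, which allows up to 2.97%. Neutrophil values lay above all macrophage values with no overlap. Macrophage values (at least 3.79 CPM) lay above all monocyte values (at most 3.04 CPM), a difference that the fit below did not call. For the monocyte gates with 0 UMIs, 3 counts would be 12.5 CPM in Control 1 and 13.9 CPM in hucMSC-Exo 1. These limits lie above every macrophage value, so the order within those libraries is not resolved at this depth. The pooled macrophage level of 6.70 CPM also lay above the dendritic limit (0.870 CPM, 3 counts over the gate) but not above the basophil limit (9.20 CPM). The monocyte, dendritic and basophil gates cannot be ordered at this depth, with 0 *Fpr1* UMIs in 2 monocyte libraries. *Fpr1* was found in 33.1% of neutrophil-like cells (30.2 to 36.0%), or 19.3% after thinning, against 0.155% of T cell-like cells at full depth.

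*Fpr2*, whose product also binds host ligands such as annexin A1 and serum amyloid A, stood at 214, 339.6, 283 and 397 CPM in the neutrophil gate (309 ± 78.3, n = 4). Control 1 was again lowest and hucMSC-Exo 2 highest, and the groups overlapped. The monocyte gate followed with 18.6 ± 2.67 CPM and the macrophage gate with 18.1 ± 10.3 CPM (n = 4 each), and these 2 neighbours did not differ beyond their spread. The basophil gate held 1 *Fpr2* UMI and the dendritic gate 1, so these gates cannot be ordered at this depth. *Fpr2* was found in 44.8% of neutrophil-like cells (41.8 to 47.9%), 9.25% of monocyte-like and 7.38% of macrophage-like cells, and in 27.2, 2.13 and 1.82% of them after thinning, against 0.258% of T cell-like cells at full depth and 0.0522% after thinning.

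*Tlr2* and *Tlr4* were spread over the phagocytes, and macrophage-like cells held 62.7% of all 1821 *Tlr2* UMIs (77.8, 70.3, 63.8 and 44.7% in the 4 libraries) and 50.4% of all 494 *Tlr4* UMIs (87.0, 56.0, 62.3 and 30.6%). In hucMSC-Exo 2 neutrophil-like cells held the larger part of *Tlr4* (42.2%). The macrophage gate also held more UMIs of all genes than any other gate, 8063231 of the 31535662 in all kept cells. Such shares therefore depend on the size of the gate as well as on the level of the gene. *Tlr2*, the receptor for bacterial lipoproteins, stood at 265, 113, 77.5 and 174 CPM in the macrophage gate (157 ± 81.9) and 240.0, 78.3, 153 and 113 CPM in the neutrophil gate (146 ± 69.6, n = 4 each). Control 1 was the highest library in both gates, and the groups overlapped in both. The monocyte gate had 109 ± 50.4 CPM, and these 3 neighbours overlapped, whereas the dendritic gate, at 41.5 ± 8.84 CPM, lay below every monocyte value and overlapped the basophil gate (39.6 ± 44.7, n = 3). *Tlr2* was found in 40.3% of macrophage-like (37.4 to 43.3%), 35.5% of monocyte-like and 18.5% of neutrophil-like cells. Thinned to equal depth the 3 shares were 11.6, 11.6 and 9.27%, so the gap seen at full depth shrank. As means over libraries they were 12.2, 9.89 and 12.9%, which puts the neutrophil gate first, and pooled T cell-like cells stood at 0.413% at full depth and 0.0522% after thinning.

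*Tlr4*, the lipopolysaccharide receptor, was found in the neutrophil gate at 42.9, 61.9, 17.0 and 62.4 CPM (46.0 ± 21.4, n = 4). hucMSC-Exo 1 was the low library and its group partner the highest, so the groups overlapped. The monocyte gate had 38.6 ± 25.4 CPM and the macrophage gate 30.3 ± 5.99 CPM, and these 3 gates overlapped. The dendritic gate, at 4.22 ± 2.85 CPM, lay below every macrophage and neutrophil value and overlapped the monocyte gate, where Control 1 held 1 *Tlr4* UMI, and no *Tlr4* UMI was seen in 101 basophil-like cells, which allows up to 2.97%. *Tlr4* was found in 17.3% of monocyte-like, 16.4% of macrophage-like and 11.2% of neutrophil-like cells, or 3.95, 3.01 and 4.59% after thinning, against 0.155% of T cell-like cells at full depth. As means over libraries the thinned shares were 3.81, 2.90 and 3.45%, which puts the monocyte gate first. The thinned neutrophil share was 0% in hucMSC-Exo 1.

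*Cd14*, whose product hands lipopolysaccharide to TLR4, was found in most cells of 4 gates. It stood at 2923, 4465, 4730 and 4343 CPM in the neutrophil gate (4115 ± 811), 2493, 2798, 2859 and 2564 CPM in the monocyte gate (2679 ± 178) and 1173, 1996, 2609.7 and 1380.0 CPM in the macrophage gate (1789.8 ± 649, n = 4 each). In the neutrophil gate Control 1 was lowest and hucMSC-Exo 1 highest, and in all 3 gates the groups overlapped. Neutrophil values lay above all monocyte values, monocyte and macrophage values overlapped, and the dendritic gate (959 ± 94.0) lay below the macrophage gate and above the basophil gate (67.5 ± 102, n = 3) with no overlap. *Cd14* was found in 91.9% of neutrophil-like (90.1 to 93.5%), 85.7% of monocyte-like, 82.9% of macrophage-like, 63.7% of dendritic-like and 1.98% of basophil-like cells. After thinning these were 86.1, 69.0, 57.1, 35.8 and 2.00%, and T cell-like cells had 2.12%, or 0.626% after thinning. The basophil share was thus near the background at full depth and above it after thinning, with 100 basophil-like cells left. Whether it exceeds the background was not tested.

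The C-type lectin genes *Clec4d* (MCL) and *Clec4e* (Mincle) were found in nearly all neutrophil-like cells. *Clec4d* stood at 1654, 2960.5, 2761 and 2611 CPM in the neutrophil gate (2497 ± 579.6) and at 278, 507, 1005 and 419 CPM in the macrophage gate (552 ± 316, n = 4 each). Control 1 was lowest in both gates, Control 2 was highest among neutrophils and hucMSC-Exo 1 among macrophages, and the groups overlapped. The monocyte gate, at 547 ± 144 CPM, did not differ from the macrophage gate beyond the spread, and the basophil gate (189.8 ± 105, n = 3) lay below every monocyte value and overlapped the dendritic gate (91.8 ± 32.8). *Clec4d* was found in 95.7% of neutrophil-like (94.2 to 96.8%), 69.3% of monocyte-like, 67.7% of macrophage-like, 29.5% of dendritic-like and 20.8% of basophil-like cells. After thinning these were 88.1, 33.4, 35.6, 9.09 and 6.00%, and T cell-like cells had 0.672%, or 0.261% after thinning.

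*Clec4e* was found not in phagocytes alone but in most basophil-like cells as well. It stood at 1826, 2848, 2019.9 and 2608 CPM in the neutrophil gate (2325 ± 482), 870.0, 1267, 1172 and 1143 CPM in the monocyte gate (1113 ± 170.4) and, in Control 2, hucMSC-Exo 1 and hucMSC-Exo 2, 1294, 600.2 and 755 CPM in the basophil gate (883 ± 364, n = 3). Control 1 was lowest among neutrophils and monocytes, Control 2 was highest in all 3 gates, and the groups overlapped in the first 2. Neutrophil values lay above all monocyte values, the monocyte, basophil and macrophage gates (566 ± 211) overlapped in turn, and the dendritic gate (137 ± 31.0) lay below. *Clec4e* was found in 92.0% of neutrophil-like (90.2 to 93.6%), 82.7% of monocyte-like, 60.4% of basophil-like (50.2 to 70.0%), 57.3% of macrophage-like and 29.0% of dendritic-like cells. After thinning these were 80.7, 52.9, 40.0, 32.2 and 9.92%, and T cell-like cells had 0.672%, or 0.313% after thinning, so the basophil share is far above the background.

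*Trem1*, which encodes an amplifier of inflammatory signalling and which the study used as a neutrophil marker, had 81.2% of its 2598 UMIs in neutrophil-like cells, although it took no part in the clustering. It stood at 660.0, 862, 860.0 and 984 CPM in the neutrophil gate (841 ± 134, n = 4). Control 1 was lowest and hucMSC-Exo 2 highest, with hucMSC-Exo 1 just below Control 2, so the groups overlapped. The monocyte gate followed with 41.8, 82.0, 41.8 and 76.3 CPM (60.5 ± 21.7), and the dendritic gate had 0, 38.5, 20.1 and 87.0 CPM (36.4 ± 37.2, n = 4 each), with 0 in Control 1 and the most in hucMSC-Exo 2. The basophil gate held 5 *Trem1* UMIs, all in 1 cell, and the macrophage gate had 19.3 ± 6.86 CPM. Neutrophil values lay above all others, and the monocyte, dendritic, basophil and macrophage gates overlapped from 1 neighbour to the next. *Trem1* was found in 72.4% of neutrophil-like (69.6 to 75.1%), 24.8% of monocyte-like, 20.1% of dendritic-like and 10.1% of macrophage-like cells, or 54.2, 3.34, 3.58 and 1.37% after thinning, against 0.258% of T cell-like cells at full depth.

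**Figure D1:**
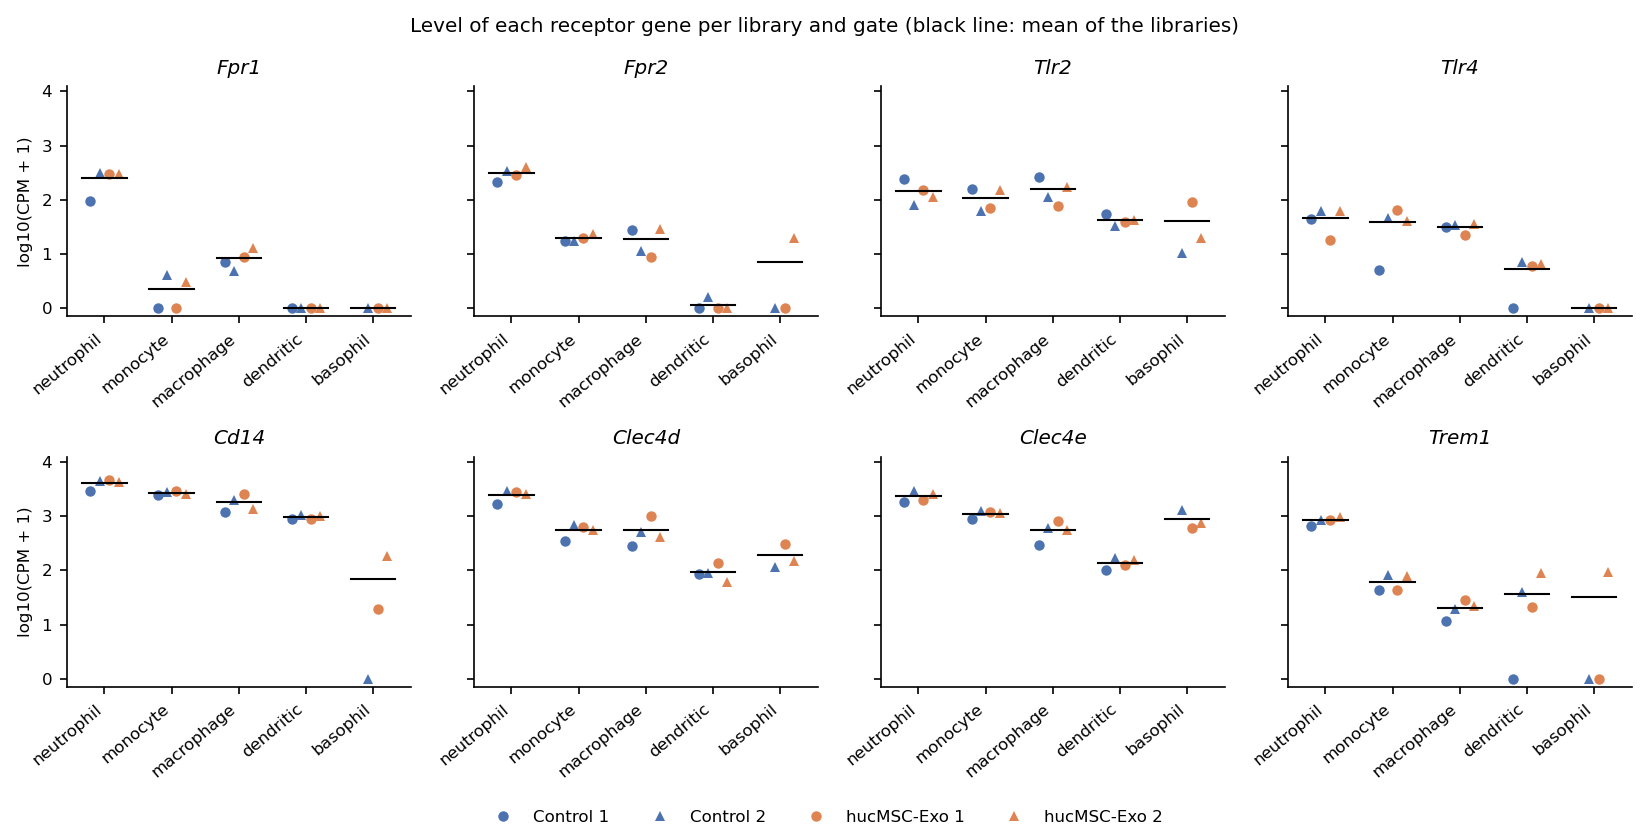
Level of each receptor gene, as log10(CPM + 1), in the 5 gates on the horizontal axis. Each point is 1 library, blue for the control group and orange for the hucMSC-Exosomes group with circles for replicate 1 and triangles for replicate 2, and the black line is the mean over libraries. *Fpr1*, *Fpr2* and *Trem1* are high in the neutrophil gate alone, *Tlr2* and *Tlr4* overlap between the first 3 gates, and *Clec4e* is also high in the basophil gate.

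The question whether the receptors differ between cell types was put to sums of UMIs per library and gate, in 1 edgeR fit over 19 sums with the library as a block, across 7062 genes. A gene counts as called when its adjusted p is below 0.05, and fold changes are log2 values ± SE. *Fpr1*, *Fpr2*, *Cd14*, *Clec4d*, *Clec4e* and *Trem1*, 6 of the 8 members, were higher in neutrophil-like cells than in each of the other 4 gates. *Tlr2* and *Tlr4* were set apart only from dendritic-like and basophil-like cells and, for *Tlr4*, from macrophage-like cells. *Tlr2* had a higher mean CPM in the macrophage gate but a fitted change of 0.14 ± 0.23 in favour of the neutrophil gate. This change was not called (edgeR adjusted p = 0.623, neutrophil CPM higher in 1 of 4 libraries). Without hucMSC-Exo 1 it turned to -0.13.

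Against monocyte-like cells, 6 members were higher and 0 lower in the neutrophil gate, where 24.2% of all genes tested were higher and 26% lower. The median change was 1.93 over the 8 members and -0.12 over all genes. The largest was that of *Fpr1*, with 669 UMIs in the neutrophil gate and 4 in the monocyte gate (7.48 ± 0.47, edgeR adjusted p = 1.47e-12, higher in 4 of 4 libraries). *Fpr2* (4.51 ± 0.33, edgeR adjusted p = 2.79e-12) and *Trem1* (4.13 ± 0.34, edgeR adjusted p = 2.99e-11) followed, each higher in 4 of 4 libraries. *Tlr4* (0.81 ± 0.34, edgeR adjusted p = 0.0521) and *Tlr2* (0.58 ± 0.26, edgeR adjusted p = 0.0588), each higher in 3 of 4 libraries, were not called. DESeq2 called 5 members, without *Cd14*, and edgeR added *Tlr4* without Control 1 or without hucMSC-Exo 1, and *Tlr2* without hucMSC-Exo 2 and at a Leiden resolution of 1.6. With gates from markers of single cells all 8 were called. *Tlr2* had 111 pooled CPM in the neutrophil gate and 114 in the monocyte gate, against the sign of its fitted change.

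Against macrophage-like cells, 7 members were higher and 0 lower in the neutrophil gate, beside 27.9% and 34.6% of all genes. The median change was 2.50, against -0.19 over all genes. *Trem1* differed most (5.80 ± 0.34, edgeR adjusted p = 1.06e-14, higher in 4 of 4 libraries). *Fpr1* (5.58 ± 0.31, edgeR adjusted p = 7.85e-14) and *Fpr2* (4.60 ± 0.29, edgeR adjusted p = 2.84e-14) were likewise higher in 4 of 4 libraries. *Tlr4* was higher in 3 of 4 libraries (1.11 ± 0.31), and its call was lost by DESeq2, without Control 2 and without hucMSC-Exo 2, each of which called the other 6. *Tlr2* was called as well with cells over 3000 genes kept.

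Against dendritic-like and basophil-like cells, all 8 members were higher in the neutrophil gate. Among all genes 27.8% were higher and 32.1% lower against the dendritic gate, and 17.4% higher and 10.7% lower against the basophil gate. The median change against dendritic-like cells was 4.48 (4.48 with *Fpr1* at its bound), against -0.16 over all genes. Against basophil-like cells it was 6.15 (4.53 with *Fpr1* and *Tlr4* at their bounds), against 0.44. *Fpr1*, with 669 UMIs against 0, was at least 334-fold higher than in the dendritic gate and at least 31.2-fold higher than in the basophil gate, taking 3 counts over the pooled gate as the floor. The ratio of *Fpr2* CPM, 828 UMIs against 1, was 1240.2 for the dendritic gate (counting interval 222 to 49044) and 116 for the basophil gate (20.7 to 4574). *Clec4d* had the next largest change against dendritic-like cells (5.02 ± 0.26, edgeR adjusted p = 5.41e-16, higher in 4 of 4 libraries). In the basophil contrast *Cd14* differed by 6.77 ± 0.50 (edgeR adjusted p = 8.33e-12, higher in 3 of 3 libraries), with 10 of the 11 basophil *Cd14* UMIs in 1 cell of hucMSC-Exo 2, and *Tlr4* was at least 6.19-fold higher. Without Control 2 the basophil contrast called 6 members and lost *Tlr2* and *Tlr4*, and without hucMSC-Exo 2 it called 7 and lost *Tlr2*.

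Between macrophage-like and monocyte-like cells, 0 members were higher and 2 lower in the macrophage gate, beside 9.6% and 7.05% of all genes. The median change was -0.21, against 0.04 over all genes. *Trem1* (-1.67 ± 0.38, edgeR adjusted p = 0.00214) and *Clec4e* (-1.02 ± 0.23, edgeR adjusted p = 0.00221) were each lower in 4 of 4 libraries. *Trem1* was not called by DESeq2 or without Control 2 (-1.38), where *Fpr1* was called in its place. *Clec4e* was not called without the library block, and the count ranged from 1 to 5 over the alternatives. *Fpr1* and *Tlr2* were higher and *Cd14* lower in 4 of 4 libraries, none of them called. The monocyte gate held 4 *Fpr1* UMIs, with 0 in Control 1 and hucMSC-Exo 1, so the *Fpr1* direction in those libraries is not resolved at this depth.

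Dendritic-like cells had less of most members than monocyte-like cells, with 6 lower and 0 higher beside 12.3% and 11.4% of all genes. The median change was -2.64 (-1.92 with *Fpr1* at its bound), against 0.02 over all genes. *Fpr2* had 1 UMI in the dendritic gate and 41 in the monocyte gate, a CPM ratio of 67.5 in favour of the monocyte gate (counting interval 11.5 to 2731). *Clec4e* (-2.90 ± 0.26, edgeR adjusted p = 5.37e-10) and *Tlr4* (-2.77 ± 0.46, edgeR adjusted p = 3.87e-05) were lower in 4 of 4 libraries. *Trem1* (-0.58 ± 0.38, edgeR adjusted p = 0.284, lower in 3 of 4 libraries) was not called, nor was *Fpr1*, which had 4 UMIs against 0 (edgeR adjusted p = 0.105). Without hucMSC-Exo 2 the call of *Tlr2* was lost and 5 remained. DESeq2 called 5, 6, 8, 8, 1 and 6 members in the 6 contrasts in the order given. The number of genes called over the whole table was 1176 for macrophage against monocyte gate (590 without Control 2, 476 without hucMSC-Exo 2), 1676 for dendritic against monocyte gate (905 and 969) and 1987 for neutrophil against basophil gate (1082 without Control 2).

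**Figure D2:**
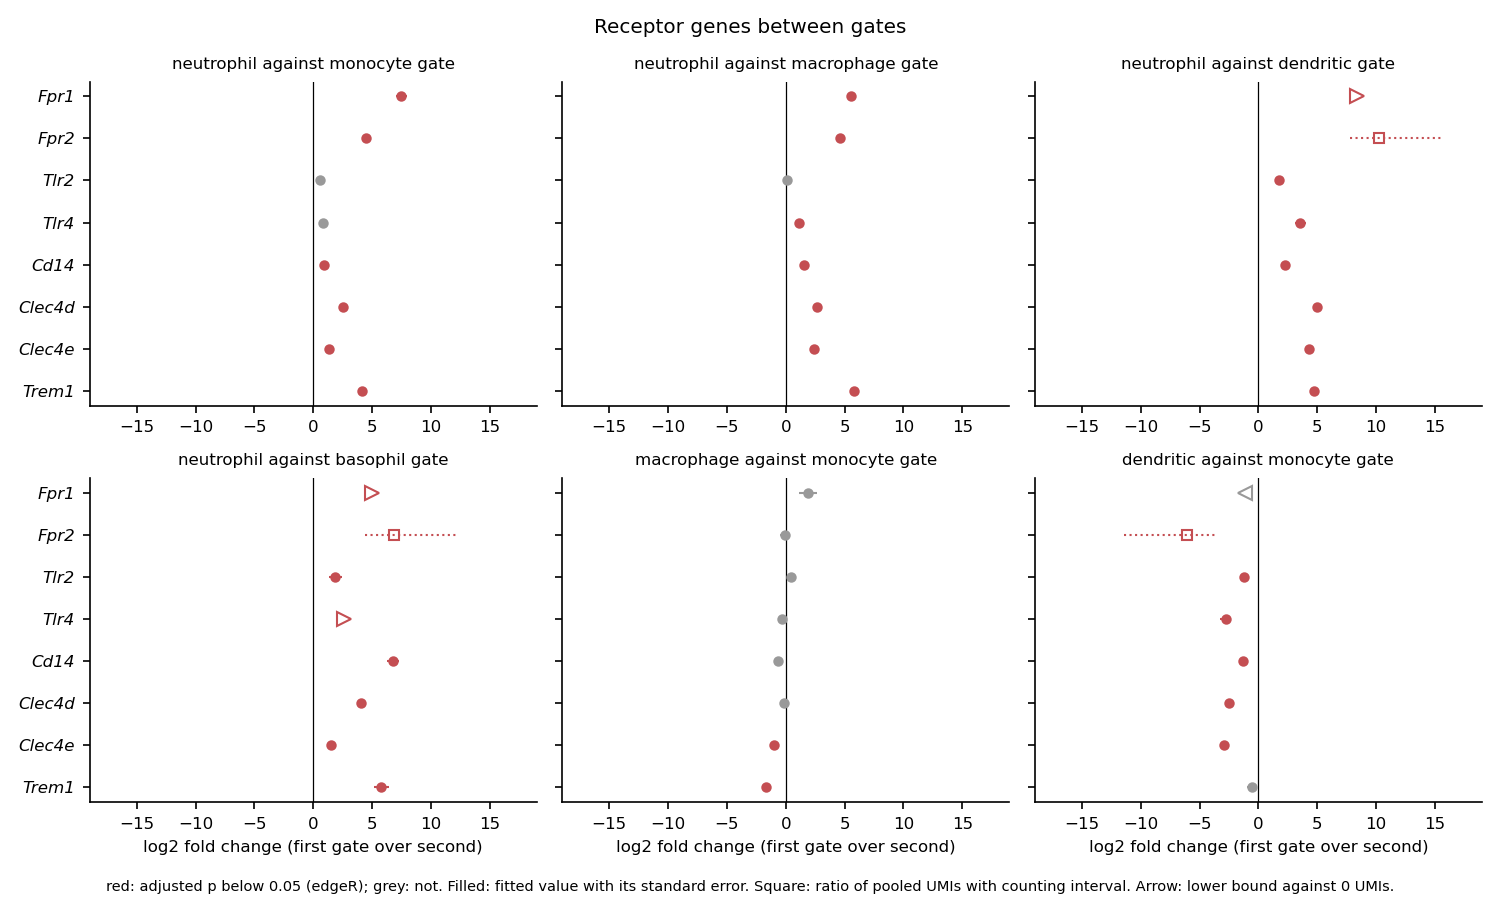
Difference of each receptor gene between gates as a log2 fold change of the first gate over the second, with 1 panel per contrast. Filled points with bars are fitted values ± SE, open squares with dotted lines are ratios of pooled CPM with their counting interval, arrows are lower bounds against 0 UMIs, and red marks an edgeR adjusted p below 0.05. All 8 genes lie to the right, higher in neutrophil-like cells, in the dendritic and basophil panels, while 2 genes are red, and lower, between macrophage-like and monocyte-like cells.

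Within the macrophage gate the receptors were unequally shared between its 2 clusters. Cluster 3 (374 cells, led by *Ccl8*, *Ccl12* and *Folr2*) had *Cd14* at 957, 448, 642 and 408 CPM, and cluster 7 (737 cells, led by *Spic* and *Pdpn*) had it at 2225, 2386, 2889 and 2102 CPM. *Clec4d* stood at 217, 129, 128 and 71.2 CPM in cluster 3 and 580.1, 602, 1129 and 677 CPM in cluster 7, and *Clec4e* at 251, 142, 156 and 89.0 and 512, 723, 901 and 898 CPM. For *Cd14*, *Clec4d*, *Clec4e* and *Trem1* every library of cluster 7 lay above every library of cluster 3, a difference that was not tested. *Tlr2* was higher in cluster 3 in Control 2 and hucMSC-Exo 1 and lower in the other 2 libraries, with 247, 157, 124 and 147 CPM in cluster 3 and 349, 102, 70.9 and 194 CPM in cluster 7. The clusters were unequally filled, with 139, 98, 37 and 100 cells in cluster 3 and 23, 355, 212 and 147 in cluster 7, so a macrophage value depends on this mixture. With cluster 3 alone, an alternative added after the data were seen, *Fpr1* was higher and *Cd14*, *Clec4d*, *Clec4e* and *Trem1* were lower than in monocyte-like cells, whereas cluster 7 alone differed in *Trem1* only.

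**Figure D3:**
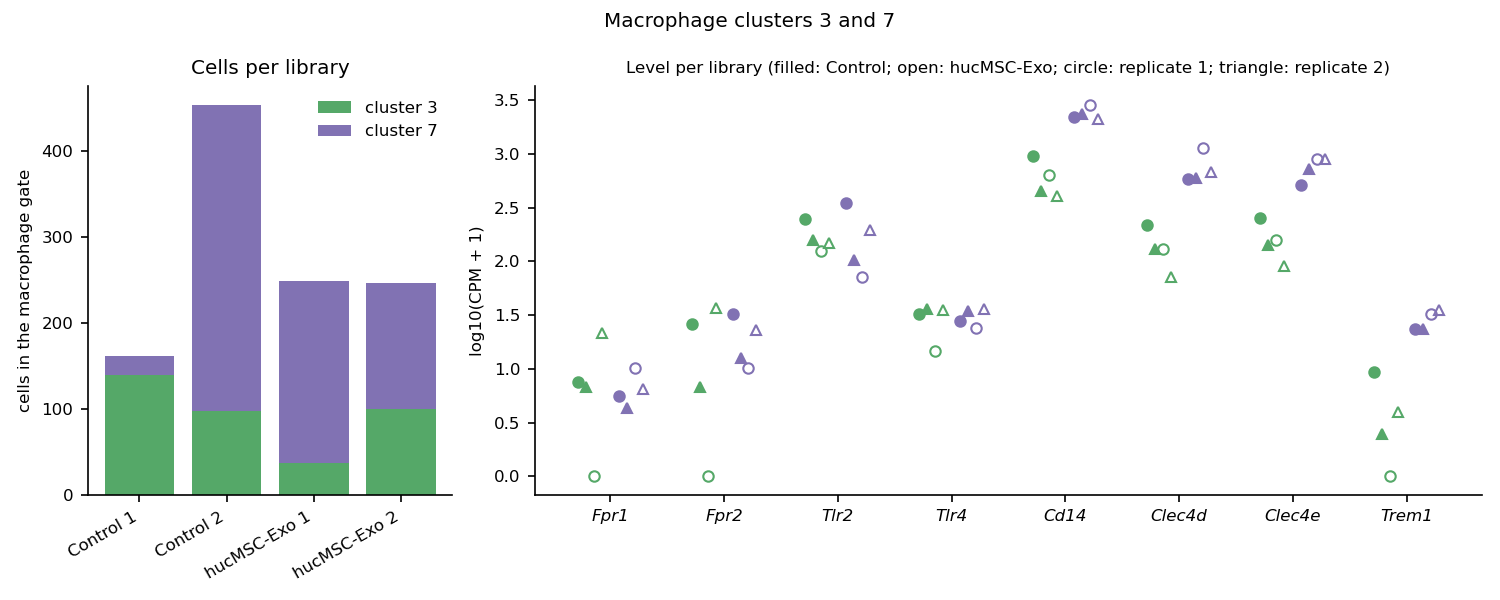
The macrophage gate by its 2 clusters: cells of each library as stacked bars from 0 on the left, and the level of each receptor gene as log10(CPM + 1) on the right, with 1 point per library, filled for the control group and open for the hucMSC-Exosomes group. Cluster 7 (purple) lies above cluster 3 (green) in every library for *Cd14*, *Clec4d*, *Clec4e* and *Trem1*, and Control 1 is the library with most of its macrophage-like cells in cluster 3 (139 of 162).

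Of the 2 neutrophil clusters, cluster 22 (83 cells, led by the interferon-induced genes *Ifit3b*, *Ifit1* and *Rsad2*) and cluster 5 (954 cells), the first held 8, 20, 1 and 54 cells in the 4 libraries, so values are given for Control 2 and hucMSC-Exo 2. *Fpr1* stood at 301 and 341 CPM in cluster 22 and 307 and 293 CPM in cluster 5, *Clec4e* at 2612 and 2065 CPM against 2862 and 2666 CPM, and *Trem1* at 1040.2 and 1058 CPM against 852 and 976 CPM, differences that were not tested. Among dendritic-like cells, cluster 4 (325 cells, led by *Cd209a* and *Mgl2*) had *Cd14* at 1081 CPM and *Trem1* at 47.7 CPM. Cluster 10 (44 cells, led by *Ccl22* and *Fscn1*, genes of mature dendritic cells) held 23 *Cd14* UMIs, all in Control 2, 4 of *Clec4d*, 1 of *Clec4e* and 0 of the other 5 members, so the dendritic values come almost wholly from cluster 4.

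Single neutrophil-like cells carried several of the receptors at once. A neutrophil-like cell had UMIs of 4.60 of the 8 members on average, a monocyte-like cell of 3.26, a macrophage-like cell of 2.85, a dendritic-like cell of 1.61 and a basophil-like cell of 0.891, against 0.0470 in T cell-like cells. At 1000 UMIs per cell the means were 3.70, 1.77, 1.43, 0.617 and 0.500, in the same order. At least 4 members were found in 81.5% of neutrophil-like cells, with 66.1, 82.4, 79.6 and 82.8% in the 4 libraries. Control 1 was again the lowest, and all 8 members were found in 7 neutrophil-like, 2 monocyte-like and 1 macrophage-like cell.

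*Clec4d* and *Clec4e* were found together in 75.0, 90.8, 88.2 and 88.9% of neutrophil-like cells. *Fpr2* was found in 20.0, 55.8, 48.4 and 64.3% of the cells with *Fpr1* and in 28.3, 38.9, 33.9 and 39.4% of those without it. The share was larger beside *Fpr1* in 3 libraries and smaller in Control 1, where 10 cells had *Fpr1*. Cells with more UMIs are more often positive for any gene, and that part was not tested here.

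No receptor passed the threshold between the hucMSC-Exosomes and control groups. In each gate with at least 10 cells in all 4 libraries the hucMSC-Exosomes group was compared with the control group by edgeR on sums per library, across 3933 genes in the neutrophil, 4546 in the monocyte, 8078 in the macrophage and 5550 in the dendritic gate. edgeR called 0 of 8, 0 of 6, 0 of 8 and 0 of 5 members tested, where 0% of all genes were called in each gate. At an unadjusted p under 0.05 there were 0 members in each gate and 43, 109, 95 and 74 genes, and DESeq2 called 0 members in each gate and 0, 1, 0 and 0 genes. *Fpr1* and *Fpr2* in the monocyte gate, and *Fpr1*, *Fpr2* and *Tlr4* in the dendritic gate, had too few UMIs for a test, and the basophil gate had 1 library below 10 cells.

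In neutrophil-like cells 7 of 8 members had a positive fitted change and 5 a higher mean CPM in the hucMSC-Exosomes group, beside a positive change in 2054 of 3933 genes, with a median of 0.36 against 0.02 over all genes. *Fpr1* had the largest (0.53 ± 0.49, edgeR adjusted p = 1.00), with both hucMSC-Exo libraries between the 2 Control libraries. *Cd14* came next (0.43 ± 0.45, edgeR adjusted p = 1.00), with 1 of the 2 hucMSC-Exo libraries above both Control libraries. By titles no member, 0 of 8, had groups that did not overlap in CPM, beside 25.3% of all genes. Paired by the letters, *Fpr2*, *Tlr2*, *Tlr4*, *Clec4e* and *Trem1* did not overlap, while *Fpr1*, *Cd14* and *Clec4d* did. Of those apart, *Tlr2* was lower and the others were higher in Control 2 and hucMSC-Exo 2. The share of all genes under the pairing by letters is not given here for any gate. The *Fpr1* value rests on Control 1, which has 56 neutrophil-like cells: without it the change was -0.037. In the neutrophil gate of Control 1 the 5 keratinocyte markers summed to 2323 CPM, against 991, 1482 and 1162 CPM in the other libraries, with each marker present and *Krt14* the most abundant, and their part in the low *Fpr1* value was not tested.

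In monocyte-like cells all 6 members tested had a positive fitted change and 5 a higher mean CPM in the hucMSC-Exosomes group, beside a positive change in 2274 of 4546 genes, with a median of 0.22 against 0.00 over all genes. *Tlr4* stood at 4.18, 45.6, 65.1 and 39.7 CPM (0.70 ± 0.58, edgeR adjusted p = 0.999), with 1 of the 2 hucMSC-Exo libraries above both Control libraries. Control 1 was low, with 1 *Tlr4* UMI, and the groups overlapped. *Tlr2* stood at 155, 60.8, 69.7 and 149.6 CPM (0.34 ± 0.45, edgeR adjusted p = 0.999), with neither hucMSC-Exo library above both Control libraries. The *Tlr2* change turned to -0.32 without Control 2 and to -0.44 without hucMSC-Exo 2. Groups did not overlap in 0 of the 6 members tested, beside 29.9% of all genes. Paired by the letters, *Trem1* (41.8, 82.0, 41.8 and 76.3 CPM) did not overlap, higher in Control 2 and hucMSC-Exo 2, and the other members tested did. *Fpr2*, too low for the test and not among the genes of the 29.9%, stood at 16.7, 16.7, 18.6 and 22.4 CPM, from 4, 11, 4 and 22 UMIs. Its groups did not overlap by titles, with the hucMSC-Exo libraries higher, but overlapped by letters. With 4 UMIs each in Control 1 and hucMSC-Exo 1, the separation by titles is not resolved at this depth.

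In macrophage-like cells 6 of 8 members had a positive fitted change and 5 a higher mean CPM in the hucMSC-Exosomes group, beside a positive change in 3884 of 8078 genes, with a median of 0.54 against -0.01 over all genes. *Fpr1* stood at 6.17, 3.79, 7.98 and 12.0 CPM (1.10 ± 0.56, edgeR adjusted p = 1.00), with both hucMSC-Exo libraries above both Control libraries. *Clec4d* stood at 278, 507, 1005 and 419 CPM (0.94 ± 0.51, edgeR adjusted p = 1.00), high in hucMSC-Exo 1 alone, and the groups overlapped. Groups did not overlap in 2 of 8 members, *Fpr1* and *Trem1* (10.8, 18.1, 27.4 and 20.9 CPM), both higher in the hucMSC-Exo libraries, beside 20.3% of all genes, so this count is near the background. Paired by the letters, the libraries overlap in both genes. Under that pairing *Tlr4* (30.9, 33.8, 21.7 and 34.8 CPM) did not overlap, higher in Control 2 and hucMSC-Exo 2, and all other members did. The *Clec4d* change was -0.94 in cluster 3 alone and 0.73 in cluster 7 alone, neither of them called, and 0.052 without hucMSC-Exo 1.

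In dendritic-like cells 4 of 5 members tested had a positive fitted change and 3 a higher mean CPM in the hucMSC-Exosomes group, beside a positive change in 2867 of 5550 genes, with a median of 0.03 against 0.01 over all genes. *Trem1* stood at 0, 38.5, 20.1 and 87.0 CPM (1.10 ± 0.97, edgeR adjusted p = 1.00), with 1 of the 2 hucMSC-Exo libraries above both Control libraries. Its change was -0.23 without hucMSC-Exo 2, and without Control 2 it was called, where the lone Control 1 has 0 UMIs. *Clec4d* stood at 84.2, 86.9, 137 and 58.7 CPM (0.20 ± 0.43, edgeR adjusted p = 1.00), with 1 of the 2 hucMSC-Exo libraries above both Control libraries and the other below both. Without hucMSC-Exo 1 the *Clec4d* change was -0.54. Groups did not overlap in 0 of 5 members, beside 28.1% of all genes. Paired by the letters, *Cd14*, *Clec4e* and *Trem1* did not overlap, each higher in Control 2 and hucMSC-Exo 2, while *Tlr2* and *Clec4d* did. Over the whole table, leaving out 1 library called up to 9 genes in the neutrophil gate (without Control 1), 56 in the monocyte, 106 in the macrophage and 171 in the dendritic gate (each without Control 2), and the dendritic *Trem1* was the single member among them.

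Other sensing receptors did not all share the neutrophil pattern. Beside the counts of this and the 3 further lists stand the shares of all genes called higher and lower, in the order of the contrasts: 24.2 and 26, 27.9 and 34.6, 27.8 and 32.1, 17.4 and 10.7, 9.6 and 7.05, and 11.4 and 12.3%. Of the 22 genes, 15 were tested between gates, and *Clec7a* and *Fpr3* were not among the symbols. Against monocyte-like cells 9 were higher in the neutrophil gate and 5 lower (median 1.29, all genes -0.12). The TLR2 partner *Tlr6* (3.41 ± 0.35) and *Trem3* (3.17 ± 0.30), a gene of the Trem cluster, led the first, and the lipid receptor *Trem2* (-4.39 ± 0.48) and the scavenger receptor *Cd36* (3 against 106 UMIs, ratio 38.8, counting interval 12.9 to 191) the second. Against macrophage-like cells 8 were higher and 5 lower (median 1.01, all genes -0.19), led by *Trem3* (5.82 ± 0.32) and *Tlr6* (3.24 ± 0.28) and by *Trem2* (-6.26 ± 0.41) and *Cd36* (ratio 76.3, counting interval 26.0 to 371). Against dendritic-like cells 10 were higher and 2 lower (median 1.54, all genes -0.16), namely *Trem3* (7.09 ± 0.43) and *Tlr13* (5.31 ± 0.35), a sensor of bacterial ribosomal RNA, first, and *Trem2* (-2.30 ± 0.59) and *Cd36* (ratio 5.34, counting interval 1.62 to 27.7) lower. Against basophil-like cells 9 were higher and 0 lower (median 6.60, or 1.53 with 10 genes at their bounds and 1 left out, all genes 0.44), with *Clec4n*, which encodes Dectin-2, at least 35.6-fold and *Trem3* at least 18.6-fold higher.

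Macrophage-like against monocyte-like cells gave 4 of these receptors higher and 2 lower (median -0.02, all genes 0.04), with *Tlr1* (2.30 ± 0.44) and *Trem2* (1.87 ± 0.23) higher and *Trem3* (-2.65 ± 0.42) and *Ptafr* (-0.76 ± 0.18), the receptor for platelet-activating factor, lower. Dendritic-like against monocyte-like cells gave 0 higher and 9 lower (median -2.08, all genes 0.02), among them the RNA sensor *Tlr7* (3 against 63 UMIs, ratio 34.6, counting interval 11.3 to 172, in favour of the monocyte gate) and *Trem3* (-3.92 ± 0.59). The edgeR adjusted p of the named genes was at most 0.0355, and each showed its direction in every library compared. *Cd36* against dendritic-like cells was not called without Control 2 (-1.71), without hucMSC-Exo 2 (-2.22), without a library block (-2.03) or with gates from markers of single cells (-0.48), and with the last *Trem2* turned to 1.83.

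Of 18 co-receptors and adaptors 17 were tested. In the neutrophil gate 6 were higher and 4 lower than in the monocyte gate (median 0.09, all genes -0.12): *Tyrobp* (1.78 ± 0.20), which encodes the TREM1 adaptor DAP12, and *Tirap* (1.46 ± 0.45), a bridge to MyD88, were higher, and *Ticam2* (-2.82 ± 0.49) and *Ticam1* (-2.44 ± 0.45), adaptors of the interferon-inducing branch of TLR4, lower. Against the macrophage gate 8 were higher and 4 lower (median 0.20, all genes -0.19), with the same 4 in front: *Tirap* (2.29 ± 0.42), *Tyrobp* (2.15 ± 0.20), *Ticam1* (-1.70 ± 0.44) and *Ticam2* (-1.66 ± 0.50). Against the dendritic gate 7 were higher and 5 lower (median 0.44, all genes -0.16), with *Tirap* (2.36 ± 0.47) and *Tyrobp* (2.13 ± 0.20) higher and *Ticam1* (-2.19 ± 0.45) and *Malt1* (-2.12 ± 0.22) lower. Against the basophil gate 6 were higher and 0 lower (median 0.80, or 0.65 with 2 genes at their bounds, all genes 0.44), with *Tirap* at least 3.17-fold higher and the kinase *Syk* (3.33 ± 0.31).

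Between macrophage-like and monocyte-like cells 1 adaptor, *Arrb2* (1.42 ± 0.26), was higher and 3 were lower (median -0.35, all genes 0.04), led by *Ticam2* (-1.16 ± 0.31) and *Irak2* (-0.86 ± 0.21). Between dendritic-like and monocyte-like cells 2 were higher, *Malt1* (1.41 ± 0.21) and *Arrb2* (1.28 ± 0.28), and 5 lower (median -0.41, all genes 0.02), led by *Ly96* (-1.64 ± 0.40), which encodes the TLR4 partner MD-2, and *Irak2* (-0.93 ± 0.22). The edgeR adjusted p of the named adaptors was at most 0.0102, and each showed its direction in every library compared. Calls were lost without Control 2 for *Ticam2* in macrophage-like cells (-0.98) and *Arrb2* in dendritic-like cells (0.88), and without hucMSC-Exo 2 for *Irak2* in macrophage-like (-0.72) and *Ly96* in dendritic-like cells (-1.32). They were also lost with gates from markers of single cells for *Ticam1* of neutrophil-like against dendritic-like cells (-1.50) and *Ticam2* in macrophage-like cells (-0.56), with cells over 3000 genes kept for *Ticam2* of neutrophil-like against macrophage-like cells (-1.21), and with 1 macrophage cluster alone for *Ticam2* in both contrasts and *Irak2* in macrophage-like cells. Without Control 2 the adaptors called numbered 6 in neutrophil against monocyte, 7 in neutrophil against macrophage, 2 in macrophage against monocyte and 3 in dendritic against monocyte gate, and without hucMSC-Exo 2 the last 3 counts were 6, 2 and 3, the last being 4 without hucMSC-Exo 1.

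Of 8 negative regulators 7 were tested. Against monocyte-like cells 5 were higher in the neutrophil gate and 0 lower (median 1.58, all genes -0.12), led by the inhibitory receptor *Cd33* (3.34 ± 0.24) and *Irak3* (2.70 ± 0.27), a brake on Toll-like receptor signalling. Against macrophage-like cells 5 were higher and 1 lower (median 1.20, all genes -0.19), with *Cd33* (2.77 ± 0.20) and *Irak3* (2.62 ± 0.23) higher and *Tollip* (-0.77 ± 0.24) lower. Against dendritic-like cells 6 were higher and 0 lower (median 1.19, all genes -0.16), led by *Pilra* (4.59 ± 0.31) and *Cd33* (4.38 ± 0.25). Against basophil-like cells 3 were higher and 1 lower (median 0.78, all genes 0.44), with *Cd33* (640 against 1 UMI, ratio 89.4, counting interval 16.0 to 3537) and *Pilra* (361 against 3 UMIs, ratio 16.8, counting interval 5.71 to 81.9) higher and *Tnfaip3* (-2.53 ± 0.27), which encodes A20, lower. Macrophage-like cells had 1 higher than monocyte-like cells, *Tnfaip3* (0.76 ± 0.25), and 0 lower (median 0.12, all genes 0.04), and dendritic-like cells 0 higher and 3 lower (median -0.48, all genes 0.02), led by *Pilra* (-2.06 ± 0.38) and *Irak3* (-1.42 ± 0.37). The edgeR adjusted p was at most 0.0328, each with its direction in every library compared. Calls were lost without Control 2 for *Tollip* (-0.62), *Tnfaip3* in macrophage-like (0.69) and *Irak3* in dendritic-like cells (-1.36), and without hucMSC-Exo 2 for *Tnfaip3* in macrophage-like cells (0.79). *Tollip* and *Tnfaip3* also lost theirs without a library block (-0.70 and 0.79) and with cells over 3000 genes kept (-0.51 and 0.57), *Tnfaip3* with gates from markers of single cells (0.62) and with cluster 7 alone (0.63), and *Tollip* turned to 0.14 with cluster 3 alone. Macrophage against monocyte gate called 3 regulators without Control 1 and 0 without Control 2 or hucMSC-Exo 2, and dendritic against monocyte gate 1 without Control 2.

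Host ligands of the receptors, with 8 of 10 genes tested, were led by the alarmins *S100a8* and *S100a9*, ligands of TLR4 that neutrophils store in bulk. Against monocyte-like cells 5 were higher in the neutrophil gate and 1 lower (median 1.35, all genes -0.12), namely *S100a9* (9.32 ± 0.78) and *S100a8* (8.18 ± 0.63) first, and the proteoglycan *Vcan* (-5.00 ± 0.41) lower. Against macrophage-like cells 5 were higher and 2 lower (median 0.86, all genes -0.19), with *S100a9* (10.36 ± 0.79) and *S100a8* (9.53 ± 0.65) higher and *Vcan* (-2.52 ± 0.45) and *Saa3* (-1.12 ± 0.42) lower. Against dendritic-like cells 5 were higher and 0 lower (median 2.51, all genes -0.16), led by *S100a9* (12.22 ± 0.89) and *S100a8* (11.59 ± 0.74). Against basophil-like cells 2 were higher, *S100a8* (7.25 ± 0.71) and *S100a9* (7.22 ± 0.83), and 1 lower, *Anxa1* (-1.42 ± 0.25), which encodes the FPR2 ligand annexin A1 (median 0.61, or 0.27 with 1 gene at its bound, all genes 0.44). Macrophage-like cells had 1 higher than monocyte-like cells, *Saa3* (1.88 ± 0.43), and 2 lower, *Pglyrp1* (-4.06 ± 0.72) and *Vcan* (-2.48 ± 0.27) (median -0.46, all genes 0.04). Dendritic-like cells had 0 higher and 4 lower (median -1.86, all genes 0.02), led by *Vcan* (-5.15 ± 0.36) and *S100a8* (-3.41 ± 0.65). The edgeR adjusted p was at most 0.0205, with the direction in every library compared except for *Saa3* against macrophage-like cells (lower in 3 of 4). That call was lost without Control 1 (-0.72) and without hucMSC-Exo 2 (-0.65), and also by DESeq2, without a library block, with cells over 3000 genes kept, with gates from markers of single cells and with cluster 7 alone (-0.047). *Saa3* of macrophage-like against monocyte-like cells was not called without hucMSC-Exo 2 (1.07), by DESeq2, without a library block or with cluster 7 alone (0.85). *Vcan* of neutrophil-like against macrophage-like cells turned to 0.72 with gates from markers of single cells and was not called with cluster 3 alone (-0.38). Without Control 2, 5 ligands were called between macrophage-like and monocyte-like cells.

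Between the hucMSC-Exosomes and control groups edgeR called 0 genes of the 4 lists in any gate. Among the other sensing receptors 0 of 9, 0 of 11, 0 of 16 and 0 of 7 genes tested were called in the neutrophil, monocyte, macrophage and dendritic gates, and 0, 0, 1 and 0 had an unadjusted p under 0.05. For co-receptors and adaptors it was 0 of 11, 16, 17 and 14, with 0 at that unadjusted p in each gate. Negative regulators gave 0 of 7, 7, 7 and 5 (0, 0, 1 and 0 at that p), and host ligands 0 of 7, 6, 7 and 5 (0, 2, 1 and 0). DESeq2 called 0, 1, 0 and 0 genes over the whole table in these gates, the 1 being *Gbp2*, an interferon-induced gene outside the lists.

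On the mouse genome (GRCm38), *Fpr1* lies on chromosome 17 at 17876471 to 17883940 (reverse strand) and *Fpr2* on chromosome 17 at 17887824 to 17893952 (forward strand), 3883 bases apart. *Clec4d* lies on chromosome 6 at 123262111 to 123275265 (forward strand) and *Clec4e* on chromosome 6 at 123281789 to 123289870 (reverse strand), with 6523 bases between them. *Trem1* is on chromosome 17 at 48232768 to 48246924 (forward strand), *Tlr2* on chromosome 3 at 83836272 to 83841767 (reverse strand), *Tlr4* on chromosome 4 at 66827584 to 66930284 (forward strand) and *Cd14* on chromosome 18 at 36725067 to 36726798 (reverse strand). All 8 are protein-coding. The neighbours within each pair thus lie on opposite strands, and both genes of each pair belong to the 6 members that were higher in neutrophil-like cells in all 4 contrasts.

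To see which genes share the pattern of each member, Pearson's r of log2(CPM + 10) was taken over the 19 sums of library and gate, among 2411 genes with a mean of at least 50 CPM. The sums share libraries and 5 gates, so r describes mainly the differences between gates, and it is given without a test. *Fpr1* went with *Il1f9* (0.983), *Cstdc4* (0.982) and *Stfa2l1* (0.980), 3 genes among those that lead the neutrophil cluster. *Fpr2* went with *Csf3r* (0.980), *Sirpb1b* (0.959) and *Slfn1* (0.946), the first encoding the G-CSF receptor. *Tlr2* was nearest to *Slfn5* (0.863), *Usf2* (0.855) and *Rybp* (0.824), and *Tlr4* to *Nisch* (0.906), *Il10rb* (0.888) and *BC005537* (0.883), where *Il10rb* encodes a chain of the interleukin-10 receptor. *Cd14* was nearest to *App* (0.973), *Tiparp* (0.955) and *Smox* (0.952). *Clec4d* went with *Fam111a* (0.941) and *Rab20* (0.918), and *Clec4e* was nearest to *Gsr* (0.961), *Slpi* (0.940) and *Sgms2* (0.921), where *Slpi* encodes a protease inhibitor of neutrophils and epithelia. *Trem1* was nearest to *Resf1* (0.935), *Il1rap* (0.924) and *Lrg1* (0.923), of which *Il1rap* encodes the shared chain of the interleukin-1 receptor. With a pseudocount of 1 in place of 10, 14 of the 24 genes of highest r, 3 for each member, stayed among the first 3, and none of the 3 named for *Trem1* did, their ranks being 24, 17 and 20.

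Because 6 members were higher in the same gate, promoters were searched for the core motifs of myeloid transcription factors, in the 250 bases before the start given by RefSeq (GRCm38.p6), for 6 of the 8 members (*Tlr4* had no entry and *Cd14* was not searched). The motifs were GAGGAA (reverse TTCCTC), the core bound by PU.1, and TTGCNNAA (reverse TTNNGCAA), the core bound by C/EBP factors, on both strands. GAGGAA was found 1 time each for *Fpr2*, *Clec4d* and *Trem1*, 2 times for *Clec4e* and 0 times for *Fpr1* and *Tlr2*, and 23.3% of all 32851 promoters of this length hold it. TTGCNNAA was found 1 time, for *Clec4e*, without overlap with the other motif, and 9.56% of all promoters hold it. A match is a string of letters and not a bound site. The 4 windows with a match are printed from 5′ to 3′ with the matches in capitals, to show where they lie: *Fpr2* at chr17:17887574-17887823, forward strand, *Clec4d* at chr6:123261857-123262106, forward strand, *Clec4e* at chr6:123289872-123290121, reverse strand and *Trem1* at chr17:48232489-48232738, forward strand.
Fpr2: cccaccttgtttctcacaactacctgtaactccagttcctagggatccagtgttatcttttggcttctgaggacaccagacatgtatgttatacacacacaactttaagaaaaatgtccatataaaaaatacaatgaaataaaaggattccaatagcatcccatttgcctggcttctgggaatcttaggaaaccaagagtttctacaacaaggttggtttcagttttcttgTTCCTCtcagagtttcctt
Clec4d: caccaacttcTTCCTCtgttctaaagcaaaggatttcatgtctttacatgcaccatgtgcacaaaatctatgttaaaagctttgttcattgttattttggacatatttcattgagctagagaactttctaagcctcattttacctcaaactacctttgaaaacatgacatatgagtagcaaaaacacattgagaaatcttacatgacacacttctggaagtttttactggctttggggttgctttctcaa
Clec4e: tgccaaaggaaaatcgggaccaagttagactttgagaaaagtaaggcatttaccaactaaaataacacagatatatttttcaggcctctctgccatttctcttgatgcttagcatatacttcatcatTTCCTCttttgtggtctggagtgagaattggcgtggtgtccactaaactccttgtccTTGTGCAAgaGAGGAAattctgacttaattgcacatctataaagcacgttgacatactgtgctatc
Trem1: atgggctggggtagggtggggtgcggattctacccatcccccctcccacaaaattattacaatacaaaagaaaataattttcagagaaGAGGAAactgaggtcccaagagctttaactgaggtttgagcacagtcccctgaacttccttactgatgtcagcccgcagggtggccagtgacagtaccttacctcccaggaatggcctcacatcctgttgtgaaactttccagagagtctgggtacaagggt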

How the data were processed

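Single-cell RNA was measured in 4 libraries. The authors aligned the reads with Cell Ranger 6.1.2 to mm10 and deposited UMI counts per gene and cell, as raw counts without normalization. The study's limits on genes and mitochondrial RNA were applied, which keep cells of 200 to 3000 genes whose mitochondrial share is no more than 10%. The study also removed doublets, and none were removed here. Clusters (scanpy 1.11.5, igraph 0.11.9, Python 3.11.15; 2000 variable genes, 30 principal components, 15 neighbours, Leiden resolution 1, seed 0) were made without 66 sensing genes, 64 of which are listed, and named after fixed markers. UMIs were summed per library and gate, and sums of at least 10 cells were tested with edgeR 4.0.16 (R 4.3.3, limma 3.58.1): TMM scaling, filterByExpr, the quasi-likelihood test, and Benjamini-Hochberg adjustment over all genes tested with a threshold of 0.05. Between treatment groups the fit held the group alone, and between gates it held the gate and the library as a block. SE is the absolute log2 fold change divided by the square root of the F statistic. Shares, thinning and intervals used numpy 2.4.6, scipy 1.17.1 and pandas 2.3.3. With 2 libraries against 2 a permutation test cannot reach 0.05, so shares have no p. The pipeline was tested on simulated data.

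The alternatives were DESeq2 1.42.0, no filter on low counts, leaving out each library, the replicate number or no library as a block, cells with over 3000 genes kept, Leiden resolutions 0.6 and 1.6, gates from markers of single cells, thinned shares and a pseudocount of 1. Each macrophage cluster alone and a block that pairs the replicates crosswise were added after the data were seen. An alternative without predicted doublets was not run, because Scrublet marked 0.466% of kept cells, too few for a working threshold, so the share of doublets is not known.

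All 8 members are named. Fold changes are printed for members that passed and the 2 largest per gate between treatment groups, for up to 3 passing members each way between gates, and for up to 2 passing genes each way from each of 4 lists: other sensing receptors, co-receptors and adaptors, negative regulators and host ligands. Of the 3 genes with the highest r, all are named for 7 members and 2 for *Clec4d*. The members and lists were chosen with earlier results of these data known, and members that missed the threshold in a contrast between gates were named after their values were seen.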

Additional observations from a re-analysis of the deposited data

How the results depend on the processing

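Most results kept their direction and their side of the threshold: of 1108 alternative fold changes of 96 results, 1056 did, 41 kept the direction but lost the call, 1 gained a call and 10 reversed. With 1 library left out, the neutrophil *Fpr1* change between groups (0.53) ranged from -0.037 (without Control 1, reversed) to 2.05, and the monocyte *Tlr2* change (0.34) from -0.44 to 1.08, reversed at -0.44 and -0.32 without hucMSC-Exo 2 and Control 2, and at -0.089 with gates from markers of single cells. In dendritic-like cells *Trem1* (1.10) turned to -0.23 without hucMSC-Exo 2 and was called at a fitted 8.12 without Control 2, a size without meaning because the lone Control 1 has 0 UMIs, and *Clec4d* (0.20) ranged from -0.54 (reversed without hucMSC-Exo 1) to 0.74. Macrophage *Clec4d* reversed from 0.94 to -0.94 with cluster 3 alone. Between gates, *Trem2* in neutrophil against dendritic (-2.30 to 1.83) and *Vcan* in neutrophil against macrophage gate (-2.52 to 0.72) reversed with gates from markers of single cells, and *Tollip* (-0.77 to 0.14) with macrophage cluster 3 alone.

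The number of members called was within 1.5 times the reported count in 109 of 117 alternatives. Macrophage against monocyte gate, with 2, gave 1 by DESeq2, without a library block and with cluster 7 alone, 4 with no filter and with cells over 3000 genes kept, and 5 with gates from single-cell markers and with cluster 3 alone. The dendritic comparison of treatment groups, with 0, ranged from 0 to 1 when 1 library was left out. The number of all genes called moved in 25 of 117. Between treatment groups, with 0 in each gate, it was 3, 16, 22 and 6 with no filter in the neutrophil, monocyte, macrophage and dendritic gates, 1 by DESeq2 in the monocyte gate and 47 with crossed replicates in the macrophage gate. It ranged from 0 to 9, 6 to 56, 1 to 106 and 0 to 171 when 1 library was left out, where the lone library is assumed to vary like the other group. For macrophage against monocyte gate (1176) it was 680 without a library block, 1905 with cluster 3 alone and 476 to 1212 without 1 library, for neutrophil against basophil gate (1987) 1082 to 2056 and for dendritic against monocyte gate (1676) 905 to 1689. The causes were not tested.

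Counts of list genes moved in 26 of 280 alternatives, mean CPM in 16 of 200, mean shares in 42 of 200 (30 by thinning) and r in 10 of 24. The alternative without predicted doublets was not run. With the replicate number as a block, 0 members and 0 genes were called between treatment groups in all 4 gates. The limits are 2 mice per group, titles and file letters that pair the libraries differently, gut labels on skin, few cells in Control 1, a mixed macrophage gate, and 1 UMI or none of several members in the dendritic and basophil gates, where low levels were not detectable at this depth.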

Other observations

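Few UMIs of the receptors lay outside the 5 gates, with 1.36, 1.96, 2.53, 2.02, 1.19, 1.77, 1.22 and 1.04% of the UMIs of *Fpr1*, *Fpr2*, *Tlr2*, *Tlr4*, *Cd14*, *Clec4d*, *Clec4e* and *Trem1* in the other kept cells, although the gates hold 45.8% of all kept cells. The 39 mast-like cells (median 1243 UMIs) held no UMI of any member, which allows a share of cells with a UMI of up to 7.69% each (3 counts over the cells). The 43 cells of the cluster led by *Siglech*, a gene of plasmacytoid dendritic cells, held 2 *Cd14* UMIs, 1 of *Tlr2* and 1 of *Clec4d*. A cluster of 47 fibroblast-like cells (median 7594 UMIs) held 175 *Cd14*, 144 *Clec4d*, 122 *Clec4e* and 18 *Trem1* UMIs. *Cd14*, *Clec4d* and *Clec4e* were each found in 38.3% of these cells (24.5 to 53.6%, exact Clopper-Pearson), above the T cell-like shares of 2.12, 0.672 and 0.672% (median 4184 UMIs). A cluster of 190 shallow cells without a name (median 975 UMIs, led by *Aif1* and *C1qb*) had *Cd14* in 18.9% of cells. Whether droplets with 2 cells add to these values was not tested.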
